A study of Mus musculus and Homo sapiens with 180 samples.

Results

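The subject is a set of 5 developmentally regulated genes tied to the let-7 microRNAs, namely the RNA-binding protein genes IGF2BP1, IGF2BP2 and IGF2BP3, LIN28B, and the chromatin gene HMGA2. They were taken by symbol from 8 count tables that hold 9 experiments, where the tables list 24328 to 63152 gene rows, and all 5 were found in each table (title case in mouse). The set was selected on levels and drug responses already seen in these tables, so that the levels and responses given here describe these libraries and are not an independent test of the choice. Levels are CPM (counts per 1000000 counts on genes) scaled by TMM, a factor that corrects each library for differences in composition. The libraries read the 3′ ends of transcripts, so that levels are compared between libraries of one table for one gene, and not between genes or between tables.

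The study asked how leukaemia cells keep or lose the expression of genes driven by the MLL fusion complex when its cofactors are blocked, and what the loss of PRC1.1, a Polycomb complex that holds PCGF1 and BCOR, changes in that response. SGC0946 inhibits the histone methyltransferase DOT1L, VTP50469 blocks the binding of Menin to MLL, and DMSO is the solvent. Murine MLLAF9 leukaemia cells, which carry a non-targeting guide as the control or a PCGF1 knockout (KO), received SGC0946 (3 µM, 72 h) or VTP50469 (300 nM, 8 h or 48 h), and of the murine knockout experiment the control libraries were used here. In the murine washout series the drug was then removed for 24 h after 8 h of exposure, or for 24 h, 48 h or 72 h after 48 h. MOLM13 (an acute myeloid leukaemia line with MLL-AF9) carried a control guide, a PCGF1 KO or a BCOR KO, and MV4;11 (MLL-AF4) a control guide or a PCGF1 KO that the column names give as 1 clone. Both lines received 5 µM SGC0946 with a label of 72 h or 500 nM VTP50469 with a label of 48 h. In the MOLM13 washout series, control cells and cells labelled PCGF1/BCOR KO received 500 nM VTP50469 for 96 h, followed by 48 h or 96 h without it. DMSO libraries had labels of 72 h in the knockout experiments and MV4;11, 48 h in the murine washout series and 96 h in the MOLM13 washout series. Where the labelled times of DMSO and drug libraries differ, time and treatment cannot be told apart. K562 (an erythroleukaemia line without an MLL fusion), HuDEP-2 (an immortalised line of human erythroid precursors) and mouse embryonic stem cells (mESC) received DMSO or 5 µM SGC0946 for 168 h. A further HuDEP-2 series was treated with DMSO or SGC0946 for 7 days and then kept undifferentiated or differentiated for 72 h. Groups held 3 libraries, or 4 in K562, HuDEP-2 and mESC, and the labels do not say whether these came from separate cultures, so that p-values measure the spread between these libraries.

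The library totals on genes ran from 2203252 to 13681475 in 7 of the experiments. The exceptions were the MOLM13 washout series (491592 to 47065530) and mESC, where the SGC0946 library of replicate 4 held 34303 counts and the others reached 8499627. In the murine washout series, Pcgf1 stood at 2.49, 2.01 and 1.44 CPM in the control DMSO libraries and at 0.538, 0.542 and 0.544 CPM in the PCGF1 KO. The KO columns there are headed C1 and were matched to the PCGF1 KO as the table's other population beside the control, and whether C1 is a single clone is not stated. In MOLM13, PCGF1 stood at 7.62, 8.42 and 7.19 CPM in the control and at 8.08, 3.36 and 4.72 CPM in the PCGF1 KO, which overlap. BCOR RNA was higher in the library group labelled BCOR KO (97.9, 111 and 106 CPM against 55.3, 45.3 and 56.03 CPM), and an edited gene can still give a 3′-end read, so that neither value checks the label. In the MOLM13 washout series, DMSO libraries held PCGF1 at 0.318, 1.03 and 0.349 CPM in the control and 0.495, 0.619 and 0.101 CPM in the PCGF1/BCOR KO, and BCOR at 15.2, 22.2 and 16.4 CPM against 19.6, 23.2 and 21.5 CPM. Both genes overlap between the groups, so that this KO label is not checked by them either. The summed level of 12 erythroid markers was 18967 to 29002 CPM in the undifferentiated DMSO libraries of both HuDEP-2 series and 3099 to 3669 CPM in K562, whereas that of 10 pluripotency markers was 2855 to 3334 CPM in mESC and 0 in HuDEP-2. Counts in bulk libraries cannot tell fewer cells of a type from less RNA per cell.

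IGF2BP proteins are cytoplasmic RNA-binding proteins that recognise N6-methyladenosine (m6A) and other features of their target mRNAs and protect those mRNAs from decay. IGF2BP1 and IGF2BP3 are high in the embryo and fetus, fall in most adult tissues, and return in many cancers. LIN28B binds precursors of the let-7 microRNA family and blocks their maturation, whereas mature let-7 represses mRNAs with a matching site in the 3′ untranslated region. HMGA2 bends AT-rich DNA and is a classical let-7 target. In blood, LIN28B, IGF2BP1, IGF2BP3 and HMGA2 mark fetal stem and progenitor cells and are switched down after birth while let-7 is gained.

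All 5 members carry the let-7 site, and 3 carry it several times. The 8 mature let-7 sequences of the mouse RefSeq set (GRCm38.p6, 10 gene loci) share the seed GAGGUAG, bases 2 to 8, given in capitals in these examples.
mmu-let-7a-5p: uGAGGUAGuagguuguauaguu
mmu-let-7b-5p: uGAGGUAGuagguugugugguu
mmu-let-7i-5p: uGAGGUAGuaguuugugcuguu
The complement of the seed in DNA is CTACCTC. On the sense strand of the human transcripts (GRCh38), it occurred 4 times in the 3′ untranslated regions of IGF2BP1 (6701 bases), LIN28B (4549 bases) and HMGA2 (2999 bases), and once in those of IGF2BP2 (2401 bases) and IGF2BP3 (2153 bases). The first site of each member is printed below within 30 bases, with the site in capitals, because it is the sequence feature that the members have in common.
IGF2BP1: tgtgtgcgaagtaaaCTACCTCaaggtatg
IGF2BP2: aacacacagaagaagCTACCTCaggtgttt
IGF2BP3: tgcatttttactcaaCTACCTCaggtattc
LIN28B: acccggttgcaaagtCTACCTCatgcaagt
HMGA2: gccaacgttcgatttCTACCTCagcagcag
In GRCh38 these sites lie at chr17:49051076-49051082 (IGF2BP1, plus strand), chr3:185644221-185644227 (IGF2BP2, minus strand), chr7:23311796-23311802 (IGF2BP3, minus strand), chr6:105078827-105078833 (LIN28B, plus strand) and chr12:65963313-65963319 (HMGA2, plus strand), each in the 3′ untranslated region of the gene.

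A site of these letters was present in 9.715% of 19228 human 3′ untranslated regions and in 8.18% of 21037 mouse ones. Length enters into this share: of human regions within 25% of the length of HMGA2's, 0.0359% held at least 4 sites, and of those within 25% of the length of IGF2BP2's, 12.8% held at least 1. The mouse genes hold the same number of sites as their human counterparts, and the windows of 30 bases match between the species at 21 to 30 positions. The bases of the site itself match by construction, and the windows were compared without gaps, so that a shift of the flanks lowers the count. The window of IGF2BP3 is the same at 30 of 30 positions, as is the last of the 4 windows of HMGA2 (aatcaaaacacactaCTACCTCttaagtcc), whereas that of IGF2BP2 matches at 21. A match describes the letters only. Mature let-7 is not measured by 3′-end reads of polyadenylated RNA and has no value here.

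The members were not expressed together. Each line had its own subset, as the plot of levels by line shows. HMGA2 had 0 counts in MOLM13 and in K562, and IGF2BP1 had 4 counts over the 27 MOLM13 libraries of the knockout experiment. In murine MLLAF9 cells, Igf2bp3 was the 1 member above the test's filter, with 49.8 to 122 CPM over the 42 washout libraries, whereas Igf2bp1 (17 counts), Igf2bp2 (119), Lin28b (11) and Hmga2 (14) summed to few counts over the same libraries. MOLM13 expressed IGF2BP2, and IGF2BP3 passed the filter in its washout series (3.57 to 4.90 CPM in DMSO) and not in its knockout experiment. MV4;11 expressed IGF2BP1 and IGF2BP2, with IGF2BP3, LIN28B and HMGA2 at 4, 4 and 6 counts over 18 libraries. K562 held IGF2BP1, IGF2BP2, IGF2BP3 and LIN28B, whereas HuDEP-2 and mESC held all 5.

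**Figure D1:**
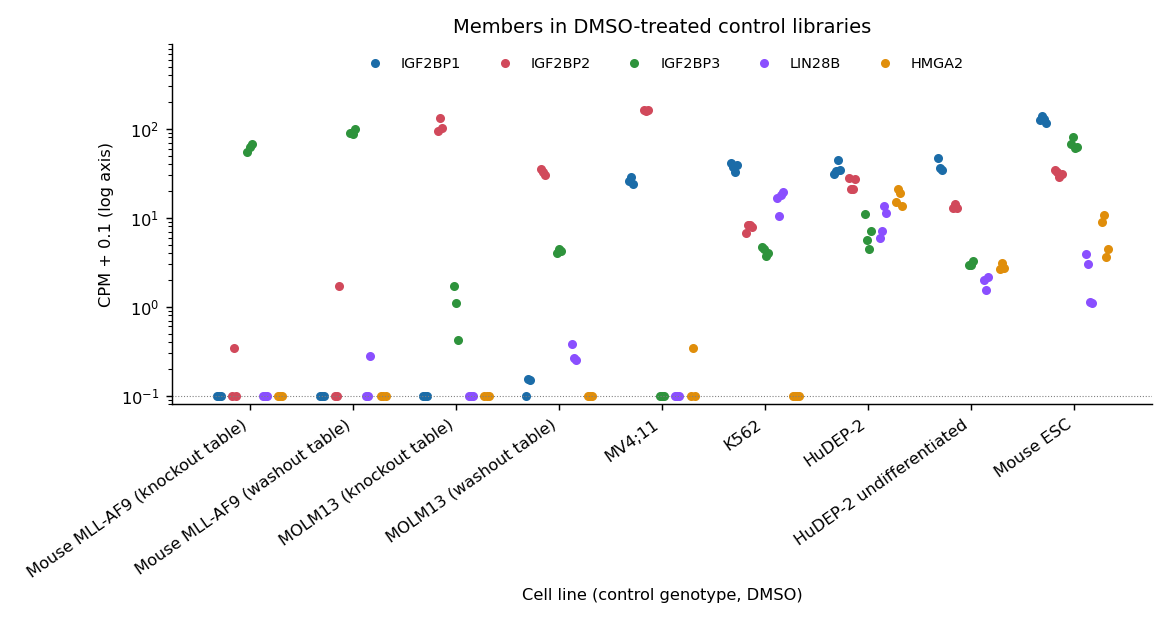
Level of each member in the control DMSO libraries of each experiment (undifferentiated for the HuDEP-2 differentiation series), with CPM on a log axis after adding 0.1, 1 point per library. The MLL-fusion lines each show 1 or 2 members above the low counts, with HMGA2 at 0 in MOLM13 and K562, and HuDEP-2 and mESC show all 5. Tables were scaled separately, so that points are not compared across experiments.

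Members that passed the filter (at least 2 CPM in at least 2 libraries) entered edgeR's quasi-likelihood test, with the adjusted p computed over all genes of the table and a call at an adjusted p under 0.05. Drug groups of one genotype share their DMSO libraries.

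IGF2BP2, an mRNA-stabilising m6A reader, was lower after DOT1L or Menin inhibition in the 2 human MLL-fusion lines. In control MOLM13 cells it stood at 93.6, 134 and 101 CPM in DMSO, at 43.7, 46.8 and 45.3 CPM in SGC0946 and at 36.1, 47.01 and 36.2 CPM in VTP50469. No drug library reached the lowest DMSO library. The log2 fold change was -1.27 (SE 0.13, adjusted p = 7.23e-08) with SGC0946 and -1.46 (SE 0.13, adjusted p = 4.62e-09) with VTP50469 by edgeR's quasi-likelihood test. As the 1 member tested, IGF2BP2 was called in both, where 13% (SGC0946) and 16.5% (VTP50469) of 12140 genes were called.

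In MOLM13 with a PCGF1 or BCOR KO, IGF2BP2 began at overlapping levels and was lower with both drugs, by smaller estimates than in the control. Its DMSO values were 102, 105 and 100 CPM in the PCGF1 KO and 109, 104 and 95.9 CPM in the BCOR KO, and the difference from control was -0.10 (95% interval -0.35 to 0.16) and -0.09 (-0.34 to 0.16). With SGC0946 the PCGF1 KO held 59.4, 71.9 and 80.6 CPM and the BCOR KO 63.5, 71.9 and 62.04 CPM, so that every KO library lay above the 3 control libraries. With VTP50469 the PCGF1 KO held 61.3, 45.9 and 58.9 CPM and the BCOR KO 46.9, 55.8 and 44.5 CPM, which overlap the control range. Within the PCGF1 KO, IGF2BP2 was called lower with SGC0946 (log2 fold change -0.53, SE 0.13, adjusted p = 0.0188) and with VTP50469 (-0.88, SE 0.13, adjusted p = 2.86e-05), where 3.11% and 8.26% of genes were called. The SGC0946 call was lost without DMSO replicate 2 (adjusted p = 0.0532) or SGC0946 replicate 1 (adjusted p = 0.127) of the PCGF1 KO. Within the BCOR KO it was called lower with SGC0946 (-0.64, SE 0.13, adjusted p = 0.00277) and with VTP50469 (-1.06, SE 0.13, adjusted p = 1.75e-06), where 4.4% and 7.25% of genes were called.

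The difference between the KO and control responses of IGF2BP2 in MOLM13 did not pass the threshold. It was 0.74 (SE 0.18, adjusted p = 0.0603) for PCGF1 and SGC0946, 0.57 (adjusted p = 0.252) for PCGF1 and VTP50469, 0.63 (adjusted p = 0.287) for BCOR and SGC0946, and 0.39 (adjusted p = 0.737) for BCOR and VTP50469. The first of these was called with DESeq2 (adjusted p = 0.0168) and without the filter (adjusted p = 0.00272). It was called in 5 of 27 edgeR fits that left 1 library out, where its value ran from 0.57 to 0.85 and the adjusted p reached 0.194. Over the other settings the adjusted p reached 0.173.

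In MV4;11, IGF2BP2 was lower with each drug in both genotypes, where the doses and times of the drugs differ. Control cells held 162, 158 and 162 CPM in DMSO, 82.4, 96.9 and 92.3 CPM in SGC0946, and 19.3, 21.5 and 20.4 CPM in VTP50469. The PCGF1 KO clone held 151, 145 and 104 CPM in DMSO, 103, 104 and 90.6 CPM in SGC0946, and 32.5, 41.01 and 44.6 CPM in VTP50469. The 3 VTP50469 libraries of the clone lay above the 3 of the control, whereas its SGC0946 range met its own DMSO range within 1 CPM.

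By the same test, control MV4;11 cells gave a log2 fold change of -0.83 with SGC0946 (SE 0.11, adjusted p = 6.34e-06) and -2.98 with VTP50469 (SE 0.14, adjusted p = 4.5e-17), a 7.89-fold lower level. With SGC0946, 1 of the 2 tested members was called, against 12.2% of 11252 genes, and with VTP50469 1 of 2 against 21%. The clone gave -0.43 with SGC0946 (SE 0.11, adjusted p = 0.0201) and -1.75 with VTP50469 (SE 0.13, adjusted p = 1.74e-12), where 1 and 2 of the 2 members were called against 4.98% and 21.5% of genes. The SGC0946 call in the clone was lost when library size alone scaled the counts (adjusted p = 0.195), when only the compared groups were fitted (adjusted p = 0.196), and without DMSO replicate 2 or any 1 of the 3 SGC0946 libraries of the clone (adjusted p from 0.050022 to 0.153). The clone's response to VTP50469 was smaller than that of the control by 1.23 (SE 0.19, adjusted p = 0.000164), a difference called for 1.91% of genes, whereas that to SGC0946 did not pass (0.40, adjusted p = 0.485). With 1 clone, the PCGF1 loss and other features of the clone cannot be told apart. Scaling by library size alone moved the median of all genes by -0.41 in control and -0.45 in clone cells with VTP50469, and the fall of IGF2BP2 kept its direction and call under it.

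**Figure D2:**
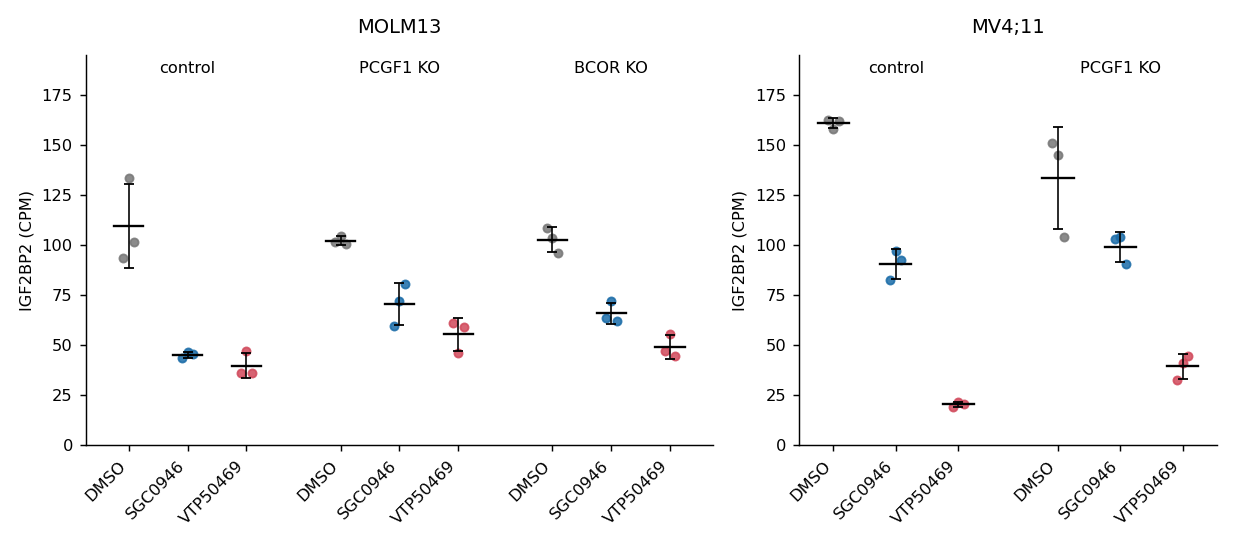
IGF2BP2 in MOLM13 (left) and MV4;11 (right), CPM per library by genotype and drug, 1 point per library, with a line at the group mean and bars for the SD. In both lines the control falls with either drug, and the KO libraries in VTP50469 of MV4;11 (32.5 to 44.6 CPM) lie above the control ones (19.3 to 21.5 CPM).

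The MOLM13 washout series had shallower drug libraries and a wider spread. Control cells held IGF2BP2 at 35.2, 32.3 and 30.5 CPM in DMSO and at 22.1, 18.1 and 11.2 CPM after 96 h of VTP50469, and the PCGF1/BCOR KO held 28.01, 30.1 and 28.7 CPM and then 36.9, 66.6 and 36.3 CPM. The control values lay below DMSO and the KO values above it, without overlap in either genotype. Neither change passed the threshold (control -0.93, SE 0.50, adjusted p = 0.169, and KO 0.66, SE 0.50, adjusted p = 0.33), nor did their difference (1.59, SE 0.71, adjusted p = 1). The replicate numbers paired these libraries, and with the replicate as a block the control change was -1.01 (adjusted p = 0.0305). It was also called with only the compared groups fitted (-0.94, adjusted p = 0.0496). The KO library at 66.6 CPM rests on 42 reads. After 96 h of washout the values ran from 15.7 to 79.7 CPM in the control and from 32.5 to 69.9 CPM in the KO, and overlapped DMSO in the control.

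Outside the MLL-fusion lines, IGF2BP2 fell with SGC0946 in HuDEP-2 and not detectably in K562. In HuDEP-2 it stood at 27.9, 20.8, 21.2 and 27.4 CPM in DMSO and at 7.62, 11.5, 8.35 and 9.19 CPM in SGC0946 (log2 fold change -1.40, SE 0.19, adjusted p = 1.2e-05), without overlap. Of the 5 members 2 were called there, against 8.16% of 10099 genes. In the differentiation series it fell from 12.8, 14.3 and 12.7 CPM to 5.4, 3.69 and 3.39 CPM in undifferentiated cells (-1.68, SE 0.20, adjusted p = 6.39e-05). In differentiated cells it fell from 14.9, 18.3 and 15.9 CPM to 6.99, 8.80 and 8.06 CPM (-1.04, SE 0.18, adjusted p = 0.00146). The difference between these falls did not pass the threshold (0.64, adjusted p = 0.473), and within SGC0946 the differentiated cells were higher (0.94, adjusted p = 0.00826). Members called were 3 of 5 in undifferentiated cells (3.86% of 9848 genes), 2 of 5 in differentiated cells (8.38%), 1 of 5 on differentiation in DMSO (15.7%) and 2 of 5 on differentiation in SGC0946 (13.2%). These counts hold LIN28B (undifferentiated cells, and differentiation in SGC0946) and HMGA2 (SGC0946 in both cell states). Both entered the test only or mainly through the group in which they were high, so that the counts are no independent support. Their calls with SGC0946 against DMSO were lost without single libraries, as given below. K562 held 6.73, 8.16, 8.3 and 7.79 CPM in DMSO and 5.12, 5.67, 6.85 and 8.74 CPM in SGC0946 (-0.23, adjusted p = 0.456).

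**Figure D3:**
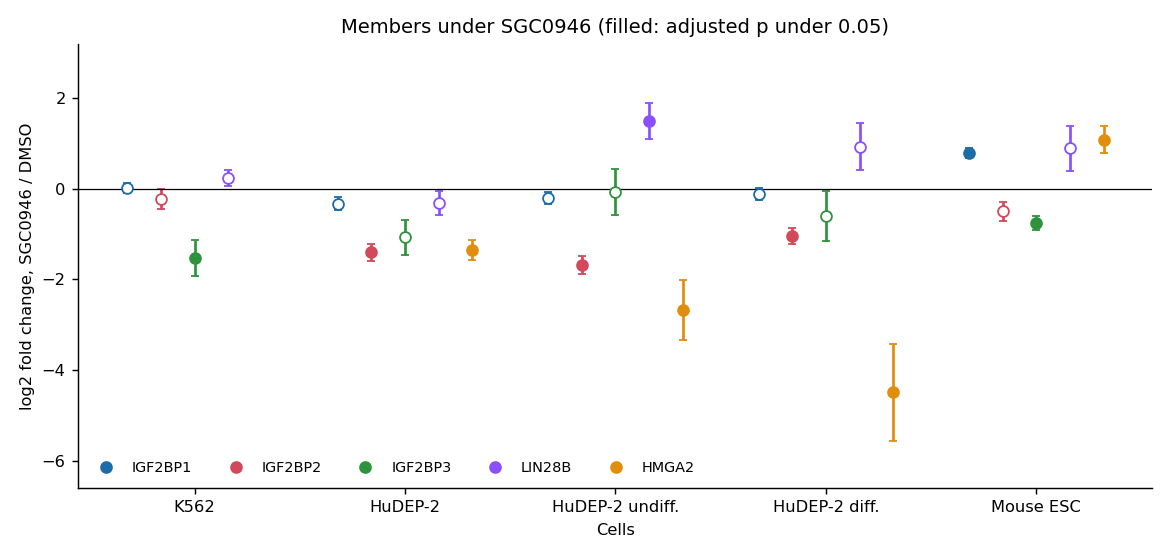
Log2 fold change of each tested member with SGC0946 against DMSO in K562, HuDEP-2, undifferentiated and differentiated HuDEP-2 cells of the differentiation series, and mESC, with bars for 1 standard error and filled points where called. IGF2BP2 lies below 0 in all 5, from -1.68 to -0.23, whereas IGF2BP1 was called higher in mESC and LIN28B in undifferentiated HuDEP-2.

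IGF2BP1, the paralogue best known for stabilising MYC mRNA, responded little to the drugs in human cells. In MV4;11 control cells it stood at 25.5, 28.98 and 23.6 CPM in DMSO, 23.7, 27.2 and 21.5 CPM in SGC0946 and 23.4, 25.1 and 26.2 CPM in VTP50469, all within overlapping ranges. With library size alone as the scale, the VTP50469 change was called lower (-0.49, adjusted p = 0.0203), where the TMM value was -0.07 (adjusted p = 0.79). The PCGF1 KO clone held more, with 48.4, 37.8 and 38.4 CPM in DMSO, 34.3, 35.4 and 34.8 CPM in SGC0946 and 34.5, 30.1 and 32.1 CPM in VTP50469. The lowest clone library lay above the highest control one. In DMSO the difference was 0.68 (SE 0.13, adjusted p = 0.000329) by edgeR's quasi-likelihood test, and 1 of the 2 tested members was called against 16.2% of genes. IGF2BP2 moved the other way in the clone (-0.27, adjusted p = 0.104). The clone's IGF2BP1 was lower with VTP50469 than with DMSO (-0.37, SE 0.13, adjusted p = 0.0381), a call that was lost with DESeq2 (adjusted p = 0.0662), without the filter (adjusted p = 0.0734), with only the compared groups fitted (adjusted p = 0.146), and without DMSO replicate 1 or any 1 of the 3 VTP50469 libraries of the clone (adjusted p from 0.053 to 0.189).

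In K562 IGF2BP1 stood at 41.6, 36.7, 32.3 and 38.9 CPM in DMSO and at 36.5, 39.3, 39.3 and 36.6 CPM in SGC0946 (0.02), and in HuDEP-2 at 31.3, 33.8, 45.04 and 34.4 CPM and then at 30.2, 27.7, 24.7 and 32.2 CPM (-0.33, adjusted p = 0.185). Both pairs of groups overlap. In the differentiation series undifferentiated cells held 46.4, 36.7 and 34.3 CPM in DMSO and 34.8, 35.2 and 32.4 CPM in SGC0946, and differentiated cells held 28.7, 26.4 and 28.9 CPM and 26.6, 23.9 and 27.8 CPM. All 6 differentiated libraries lay below all 6 undifferentiated ones. The change on differentiation was -0.48 in DMSO (adjusted p = 0.0203, lost without differentiated replicate 2 at 0.0769 or undifferentiated replicate 1 at 0.0675) and -0.39 in SGC0946 (adjusted p = 0.0738, and 0.00948 with the replicate as a block, as the numbers paired these libraries).

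In mESC Igf2bp1 and Igf2bp3 moved in opposite directions with SGC0946. Igf2bp1 rose from 126, 139, 129 and 116 CPM to 218, 223, 226 and 180 CPM (0.79, SE 0.12, adjusted p = 4.3e-06), where the last value is 8 reads of the shallow library. Igf2bp3 fell from 68.0, 81.1, 61.2 and 63.2 CPM to 38.4, 37.3, 48.5 and 0 CPM (-0.75, SE 0.16, adjusted p = 0.000696), and was not called with DESeq2 (adjusted p = 0.0739). Igf2bp2 stood at 34.001, 32.4, 28.3 and 30.7 CPM and then at 20.3, 23.2, 20.1 and 135 CPM, where the last value is 6 reads (-0.49, adjusted p = 0.092). Without the shallow library the change of Igf2bp2 was -0.56 (adjusted p = 0.0138), and the calls of Igf2bp1 and Igf2bp3 held. Of the 5 members 3 were called, against 22% of 11943 genes.

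IGF2BP3, the paralogue most tied to MLL-rearranged leukaemia, was the member expressed in the murine leukaemia cells. In control cells Igf2bp3 stood at 89.5, 88.0 and 98.4 CPM in DMSO, at 56.99, 57.6 and 59.98 CPM after 8 h of VTP50469, and at 57.004, 49.8 and 59.2 CPM after 48 h. The log2 fold change was -0.66 at 8 h (SE 0.11, adjusted p = 6e-05) and -0.73 at 48 h (SE 0.11, adjusted p = 1.6e-06). Igf2bp3 was the 1 tested member, where 6.68% and 23.2% of 10133 genes were called.

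After 8 h of drug, 24 h without it brought control Igf2bp3 to 89.6, 85.1 and 101 CPM, around the DMSO values. After 48 h of drug it stood at 71.0, 64.8 and 68.9 CPM with 24 h, 53.8, 64.5 and 64.0 CPM with 48 h, and 61.04, 60.9 and 57.97 CPM with 72 h of washout. The 72 h libraries were all below DMSO (-0.62, SE 0.11, adjusted p = 1.76e-05, where 41.6% of genes were called) and their difference from 48 h of drug did not pass (0.12, adjusted p = 0.454). The DMSO libraries had a label of 48 h and those with 72 h of washout 120 h, so that time and treatment cannot be told apart.

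In the libraries of the PCGF1 KO (columns C1) Igf2bp3 was back in its DMSO range after 72 h of washout. It stood at 96.6, 93.7 and 103 CPM in DMSO, at 84.6, 67.0 and 73.4 CPM at 8 h, and at 75.9, 85.4 and 68.7 CPM at 48 h. With 24 h of washout after 8 h it held 122, 106 and 98.4 CPM, and after 48 h of drug it held 108, 90.9 and 81.6 CPM with 24 h, 92.2, 72.2 and 87.1 CPM with 48 h and 105, 100 and 108 CPM with 72 h of washout. All 3 of the 72 h libraries lay within or above the KO's DMSO range. The difference of KO from control in DMSO did not pass the threshold (0.09, adjusted p = 0.748).

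The KO's 8 h value was -0.38 relative to DMSO (adjusted p = 0.0556). The replicate numbers paired the KO libraries, and with the replicate as a block the 8 h change was called (-0.39, adjusted p = 0.0336), as it was with RLE scaling (adjusted p = 0.0436) and DESeq2 (adjusted p = 0.0252). At 48 h the KO fell by 0.35 on the log2 scale (adjusted p = 0.0266, where 12.4% of genes were called), a call that was lost when only the compared groups were fitted (adjusted p = 0.0688), without the filter (adjusted p = 0.0784), and without KO DMSO replicate 3 (0.114) or KO 48 h replicate 1 (0.0715) or 3 (0.164). From 48 h of drug to 72 h of washout it rose by 0.45 (adjusted p = 0.0035, with 11.4% of genes called), and it then differed from DMSO by 0.09 (adjusted p = 0.899). The KO and control responses differed by 0.71 at 72 h of washout (SE 0.16, adjusted p = 0.000599, with 24.1% of genes called), and by 0.38 at 48 h of drug, which did not pass (adjusted p = 0.351). In the murine knockout experiment, control Igf2bp3 held 54.3, 62.4 and 67.3 CPM in DMSO and 64.4, 41.02 and 42.7 CPM in SGC0946. With VTP50469 it held 50.4, 64.2 and 45.7 CPM at 8 h and 47.02, 51.2 and 30.9 CPM at 48 h. The 8 h range overlapped DMSO, where 0.125% of 9583 genes were called at 8 h. The early fall of the washout series was thus not called in this experiment. No other change of Igf2bp3 in it was called by edgeR or DESeq2 (48 h of VTP50469, -0.51, adjusted p = 0.173). With the replicate as a block, as the numbers paired these libraries, the 48 h change was -0.54 (adjusted p = 0.0279).

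**Figure D4:**
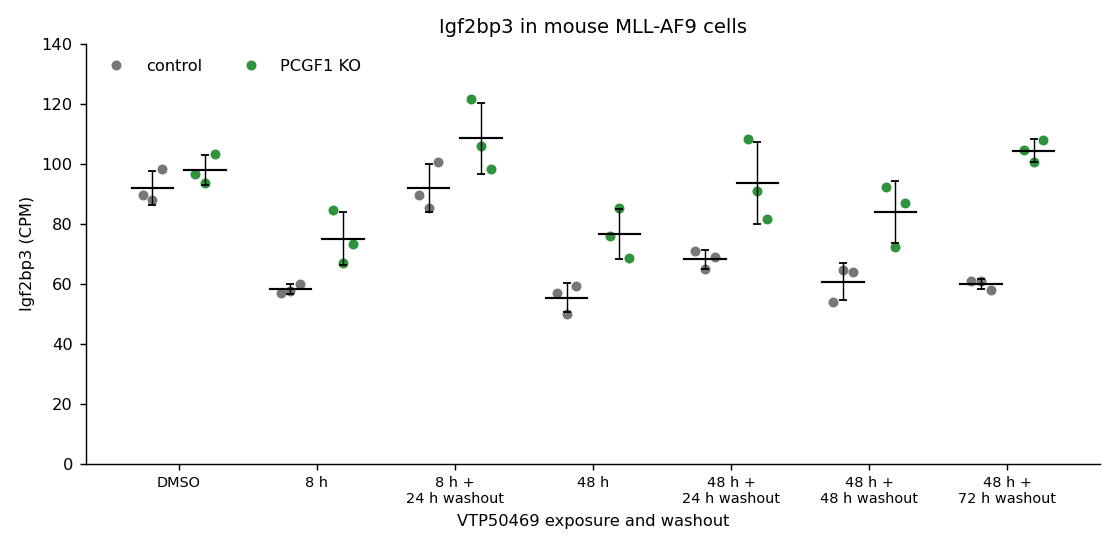
Igf2bp3 in murine MLLAF9 cells, CPM per library over DMSO, drug exposure and washout, with control and PCGF1 KO as separate points, a line at the group mean and bars for the SD. The control stays at 57.97 to 61.04 CPM with 72 h of washout, whereas the KO is at 100 to 108 CPM, near its DMSO values.

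Markers of cell identity moved beside Igf2bp3 in these libraries. Granulocyte markers rose at 48 h in both genotypes (11 of 11 tested, against 23.2% and 12.4% of all genes called). In the control with 72 h of washout 10 of 11 were higher than in DMSO, with S100a9 8.16 and Ngp 8.11 higher on the log2 scale, whereas the KO response was lower for 9 of 11 and higher for 1, against 41.6% and 24.1% of all genes called. The summed level of these markers was 4438 to 5327 CPM in control DMSO, 69077 to 86970 CPM in the control with 72 h of washout, and 6559 to 7847 CPM in the KO at that time. Meis1, a partner of HOXA9 in leukaemic self-renewal, was lower in the control with 72 h of washout (log2 fold change -5.32), with a KO response higher by 5.01. Their part in the Igf2bp3 result was not tested. The 3 genes whose group means were most like those of Igf2bp3 over the 14 groups were Gne (Pearson r = 0.95), Mcm3ap (0.91) and Lman1 (0.909), out of 6343 genes of at least 10 CPM.

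In the human lines IGF2BP3 reached at most 19.6 CPM in any library. In MOLM13 it had 157 counts over the 27 knockout libraries (0.157 to 3.48 CPM) and did not pass the filter. In the MOLM13 washout series DMSO values were 3.96, 4.32 and 4.09 CPM in the control and 4.9, 3.57 and 3.89 CPM in the KO, and with drug or washout the libraries spread from 0.231 to 19.6 CPM without a call. K562 fell from 4.58, 4.31, 3.58 and 3.95 CPM to 2.39, 0.735, 1.43 and 1.13 CPM with SGC0946 (-1.53, SE 0.39, adjusted p = 0.00426), without overlap, where 1 of 4 tested members and 34.9% of 10276 genes were called. In K562 every DMSO library reached 2 CPM, and with SGC0946 only the library at 2.39 CPM did. The entry of IGF2BP3 into that test thus rested mainly on the group in which it was high, and the count of members called is no independent support. HuDEP-2 went from 10.8, 5.51, 4.33 and 6.93 CPM to 2.65, 5.92, 2.74 and 1.55 CPM (-1.07, adjusted p = 0.0988, and 0.0410 without the filter), with an overlap. In the HuDEP-2 differentiation series it ranged from 0.349 to 5.55 CPM with no call.

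LIN28B, the block on let-7 maturation, stood out in MOLM13 cells labelled PCGF1/BCOR KO, a label that the PCGF1 and BCOR levels do not check. In DMSO these held 9.21, 11.4 and 10.7 CPM (316, 314 and 318 reads), against 0.283, 0.162 and 0.150 CPM (8, 3 and 3 reads) in the control. The groups are far apart, with a log2 fold change of 5.61 (SE 0.82, adjusted p = 0.000262) by edgeR's quasi-likelihood test. LIN28B passed the filter through the KO libraries alone, as every control library stayed below 2 CPM. Its entry into the test thus depended on the group in which it was high, and the count of members called is no independent support. With that limit, 1 of 3 tested members was called, against 1.22% of 12741 genes, and the call held when any 1 of the 24 libraries was left out. LIN28B remained in all KO groups, at 8.56, 3.17 and 13.998 CPM with VTP50469 (68, 2 and 47 reads), 9.08, 4.42 and 9.40 CPM with 48 h of washout, and 14.6, 7.55 and 8.43 CPM with 96 h. The 12 control libraries held 0 to 1.15 CPM and 24 reads in all, against 1463 reads in the 12 KO libraries. No change with drug or washout within the KO passed the threshold (-0.20, adjusted p = 0.84 for drug, and -0.03, adjusted p = 0.994 for 96 h of washout against DMSO).

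**Figure D5:**
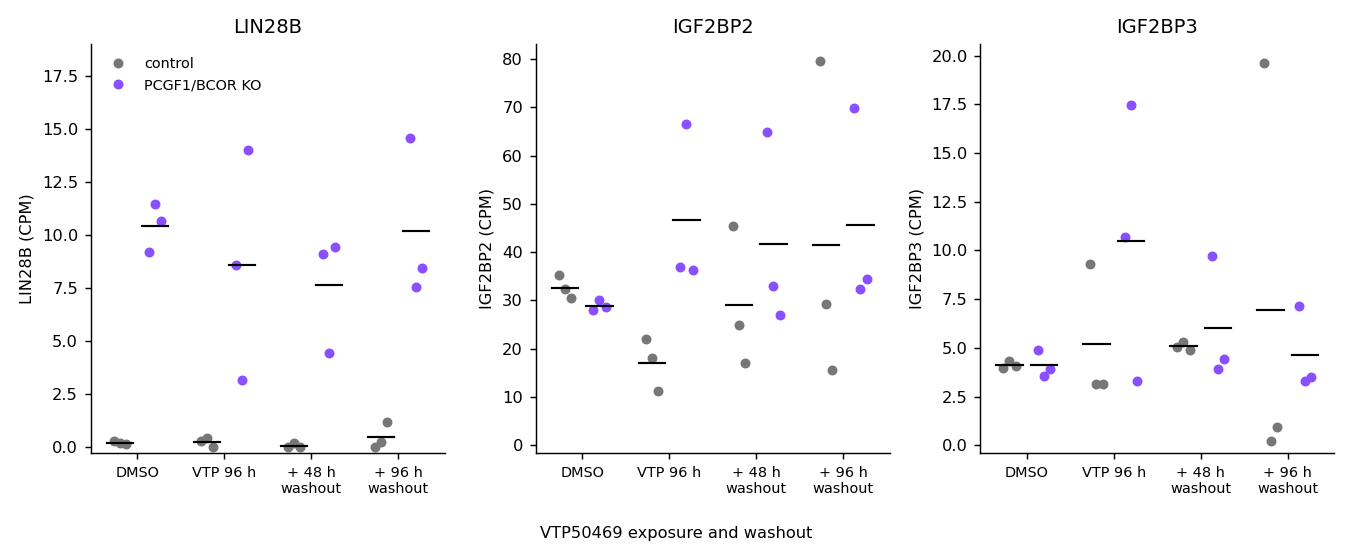
LIN28B, IGF2BP2 and IGF2BP3 in the MOLM13 washout series, with CPM on a linear axis, 1 point per library, a line at each group mean, and genotype by colour. LIN28B separates the PCGF1/BCOR KO libraries (3.17 to 14.6 CPM) from the control ones (0 to 1.15 CPM) in every condition, whereas for IGF2BP2 and IGF2BP3 the ranges of the genotypes overlap over all conditions together.

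The same gene stayed near 0 in the MOLM13 knockout experiment, with 5 counts in the 9 PCGF1 KO libraries, 1 in the 9 BCOR KO libraries and 0 in the 9 control libraries. That experiment has another table and other edited cells, and no test joins the tables. In the washout series the labelled KO also differed from control in lineage genes. HBB (4.92) and HBA1 (3.76), which encode globins, and MPO (2.60), a granule enzyme, were higher on the log2 scale, 2 of 6 tested erythroid and 1 of 7 tested granulocyte markers. The summed erythroid markers ran from 189 to 201 CPM in the KO and from 120 to 147 CPM in the control, the granulocyte markers from 199 to 296 CPM and from 38.3 to 56.6 CPM, and the monocyte markers from 1802 to 3042 CPM and from 945 to 1723 CPM. Their part in the LIN28B result was not tested. Of the let-7 targets, 1 of 22 was called higher, which is LIN28B itself, and the median over the list was 0.03 (all genes -0.04). IGF2BP2 and IGF2BP3, which carry the let-7 site, gave no call (-0.17 and -0.00, adjusted p = 1 for each).

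Promoters of 2 members are printed for their CpG content, with CG in capitals. LIN28B was higher in the PCGF1/BCOR KO than in control, whereas IGF2BP2 was lower with the drugs and was not called in that KO against control. The part of CpG content in either result was not tested. The windows run from 250 bases before to 50 bases after the start of the gene's canonical transcript in the annotation of GRCh38, at chr6:104956857-104957156 for LIN28B (plus strand) and at chr3:185824993-185825292 for IGF2BP2 (minus strand).
LIN28B: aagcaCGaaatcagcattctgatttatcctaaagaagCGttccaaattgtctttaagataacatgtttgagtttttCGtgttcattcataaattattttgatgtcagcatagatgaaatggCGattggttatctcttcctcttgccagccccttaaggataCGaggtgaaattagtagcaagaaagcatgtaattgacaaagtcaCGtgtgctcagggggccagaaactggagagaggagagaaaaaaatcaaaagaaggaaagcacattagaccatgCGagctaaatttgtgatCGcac
IGF2BP2: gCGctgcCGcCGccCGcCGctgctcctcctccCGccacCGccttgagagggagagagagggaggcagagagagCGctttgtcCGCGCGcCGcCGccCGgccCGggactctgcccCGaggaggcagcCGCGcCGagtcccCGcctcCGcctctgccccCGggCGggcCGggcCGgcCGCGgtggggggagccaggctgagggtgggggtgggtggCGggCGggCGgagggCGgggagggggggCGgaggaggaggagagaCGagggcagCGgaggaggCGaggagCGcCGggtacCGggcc
LIN28B has 8 CpG in this window and IGF2BP2 38, where the median of 19227 promoters was 23. At least as many were present in 79.0% and 15.1% of promoters, respectively. IGF2BP1 (18), IGF2BP3 (17) and HMGA2 (17) lay between them. The annotated gene LIN28B begins upstream of this start, and the files hold no chromatin data, so that the count describes the letters of 1 window.

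Among the 5 tests of SGC0946 against DMSO in which LIN28B entered, 1 was called, in undifferentiated HuDEP-2 cells of the differentiation series. In this series LIN28B reached 2 CPM only in the undifferentiated SGC0946 libraries and in the undifferentiated DMSO library at 2.07 CPM. Its entry into the test thus rested mainly on the group in which it was high. There it rose from 1.87, 1.46 and 2.07 CPM to 5.85, 4.79 and 4.77 CPM (1.504, adjusted p = 0.0442), without overlap, although the call was lost without any 1 of the 6 undifferentiated libraries (adjusted p from 0.102 to 0.174), and also without differentiated DMSO replicate 3 or differentiated SGC0946 replicate 2 or 3 (0.0582 to 0.0612), and with library size alone as the scale (0.0501). In differentiated cells it went from 0.192, 1.49 and 0.702 CPM to 1.22, 1.44 and 1.79 CPM (0.93, adjusted p = 0.333). The response in differentiated cells minus that in undifferentiated cells was -0.57 (95% interval -1.90 to 0.76, adjusted p = 0.865), so that the responses were not shown to differ. With SGC0946 the differentiated cells held less than the undifferentiated ones (-1.77, adjusted p = 0.0134), and in DMSO the change was -1.20 (adjusted p = 0.0942, and 0.0379 with the replicate as a block). In the separate HuDEP-2 experiment it stood at 5.9, 7.07, 13.5 and 11.3 CPM and at 6.19, 7.06, 7.73 and 9.31 CPM (-0.32, adjusted p = 0.559). K562 held 16.4, 10.496, 17.7 and 19.2 CPM and then 19.4, 22.5, 16.9 and 16.3 CPM (0.23, adjusted p = 0.334). In mESC, Lin28b stood at 1.02 to 3.84 CPM and at 0 to 4.68 CPM (0.90, adjusted p = 0.201).

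HMGA2, the architectural DNA-binding protein, fell with SGC0946 in HuDEP-2. It went from 14.9, 20.96, 19.1 and 13.4 CPM to 5.74, 8.62, 4.86 and 7.52 CPM (-1.35, SE 0.23, adjusted p = 0.000211), without overlap. In the differentiation series it had few counts, at 2.58, 3.01 and 2.61 CPM in undifferentiated DMSO and at 1.2, 0.137 and 0 CPM with SGC0946 (-2.67, adjusted p = 0.0316), a call that was lost without any 1 of the 3 DMSO libraries or SGC0946 replicate 2 or 3 (adjusted p from 0.0609 to 0.158). In differentiated cells it held 1.63, 1.07 and 1.95 CPM in DMSO (52 reads) and 0, 0.18 and 0 CPM with SGC0946 (1 read), a ratio of 28.7 with a 95% counting interval of 4.93 to 1155 (adjusted p = 0.0148). That call was lost without DMSO replicate 3 or SGC0946 replicate 1 or 3 (adjusted p from 0.0532 to 0.0831). In this series HMGA2 reached 2 CPM in the undifferentiated DMSO libraries alone, so that its entry into the test depended on the group in which it was high. In mESC, Hmga2 went the other way, from 8.87, 10.7, 3.57 and 4.32 CPM to 17.3, 12.5, 14.9 and 22.5 CPM, where the last value is 1 read (1.09, SE 0.30, adjusted p = 0.00637), and was not called with DESeq2 (adjusted p = 0.164) or without SGC0946 replicate 1 (adjusted p = 0.0507).

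Other let-7 targets did not share one direction with the members. The list of 27 includes the 5 members, so that the counts below include the members called. These are IGF2BP2 among the lower in control MOLM13 and MV4;11 cells, and Igf2bp3 among the lower in murine control cells. In the MV4;11 clone, IGF2BP1 is among the higher. In control MOLM13 cells 3 of 21 tested were higher and 3 lower with SGC0946 (CDK6 -1.08, IRS2 0.80, CCND2 0.42), and 3 higher and 5 lower with VTP50469 (CCND2 -1.27, CDK6 -1.25, IRS2 1.02), where 13% and 16.5% of all genes were called. In control MV4;11 cells the counts were 2 and 5 of 21 with SGC0946 (ARID3B -0.74, CCND2 0.72), and 3 and 6 with VTP50469 (ARID3B -1.10, CDK6 -0.96), against 12.2% and 21% of all genes. The MV4;11 clone differed from control at 5 higher and 1 lower (CCND2, a cyclin of the G1 phase, 3.25), against 16.2%. In murine control cells at 48 h, 4 of 19 were higher and 4 lower (Igf1r 1.87, Dicer1 1.06), and at 72 h of washout 7 were higher and 6 lower (Igf1r 2.35), where 23.2% and 41.6% of all genes were called. In HuDEP-2, 1 of 23 was higher and 4 were lower (CCND1 -0.43), with 2 of the 4 being IGF2BP2 and HMGA2, against 8.16% of all genes. In mESC, 5 of 26 were higher and 2 lower, with Myc 3.72 higher, Mycn -0.69 and Hras 0.66, against 22% of all genes. The mESC count, 7 of 26, is near that share, and 3 of the 7 are the members Igf2bp1, Igf2bp3 and Hmga2. The list medians lay between -0.17 and 0.29 in the comparisons named here, where those of all genes lay between -0.01 and 0.04.

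Of the transcripts that IGF2BP proteins are known to bind, some were lower with the drugs in the MLL-fusion lines, among them HOXA9 and CDK6, which are also known targets of MLL fusions. In control MOLM13 cells 5 of 10 tested were lower and 0 higher with SGC0946 (HOXA9 -1.39, CDK6 -1.08, GPT2 -0.90) and with VTP50469 (CDK6 -1.25, HOXA9 -0.77, GPT2 -0.75). The medians were -0.34 and -0.32, where the shares of all genes called were those given above for IGF2BP2. In control MV4;11 cells 5 of 12 were lower and 1 higher with SGC0946, and 4 lower and 1 higher with VTP50469, against 12.2% and 21% of all genes. GPT2 (-1.35 and -1.89) and SLC1A5 (-0.82 and -1.14), which serve glutamine use, were lower, and CD44 (1.35 and 1.16) was higher. In K562 GPT2 was lower (-1.99), and 2 of 9 tested were lower and 2 higher, against 34.9% of all genes. IGF2BP3 was called lower in K562 and IGF2BP2 was not called, and the part of either in the GPT2 result was not tested. In murine control cells at 48 h, 4 of 11 were lower and 1 higher (Cd44 -2.26, Hoxa9 -1.57, Gpt2 -0.98), against 23.2% of all genes. At 72 h of washout, the KO response was higher for 4 and lower for 1, led by Cd44 (2.44), against 24.1%. In the MV4;11 clone 7 of 12 were higher than in control and 0 lower (CD44 2.31, HOXA9 0.58, GPT2 0.53), against 16.2%.

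Genes that work with the members are given as counts beside the share of all genes called. Of the m6A writers, erasers and readers tested in control MV4;11 cells, 1 of 16 was lower with SGC0946 (HNRNPC -0.34), and 2 were higher and 1 lower with VTP50469 (YTHDC2 0.53, HNRNPC -0.49), against 12.2% and 21% of all genes. In mESC 4 of 15 were higher (Hnrnpa2b1 1.11, Wtap 0.88, Zc3h13 0.60), against 22% of all genes. Proteins that bind IGF2BP gave 5 of 10 lower in control MV4;11 with VTP50469 (HNRNPU -0.48, STAU1 -0.46, ELAVL1 -0.42) and 3 of 10 lower in murine control cells at 48 h (Syncrip -0.60), against 21% and 23.2% of all genes. In the genes of let-7 processing and turnover, mESC held 5 of 13 higher (Xpo5 1.297, Ago2 0.90, Tarbp2 0.66), against 22% of all genes, and 1 of 10 was called in the clone against 16.2%, where the MV4;11 clone held less of DROSHA, the nuclear cutter of microRNA precursors, than control (-0.999).

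The genes of the fetal blood list did not move in one direction with SGC0946 in HuDEP-2. In the differentiation series the fetal globins HBG2 (2.36 undifferentiated, 3.04 differentiated) and HBG1 (2.17, 2.87) and the embryonic HBZ (2.25, 2.48) were higher with SGC0946 on the log2 scale, while IGF2BP2 and HMGA2 were lower. LIN28B was called higher in undifferentiated cells, a call that was lost in the fits named above. IGF2BP1 and IGF2BP3 were not called with SGC0946 in this series. Of 13 tested genes of the list, which includes the members, 4 were higher and 3 lower in undifferentiated cells and 5 higher and 3 lower in differentiated cells, against 3.86% and 8.38% of all genes. In the separate HuDEP-2 experiment HBG1 (1.49) and HBG2 (1.40) were higher too, with 3 of 12 tested genes of the list higher and 2 lower, against 8.16% of all genes. HBG1 and HBG2 are near-identical copies whose reads counting can split, so that the value of each is uncertain. In K562 4 of 11 were higher and 3 lower (HBZ 0.61, HBE1 -0.55, HBG2 0.53), where 34.9% of all genes were called. Erythroid markers as a list did not follow SGC0946 in one direction in HuDEP-2 (3 of 12 higher, 3 lower, HBA1 -0.66), whereas on differentiation in DMSO 11 of 12 rose (SLC4A1 2.22, ALAS2 2.17), against 15.7% of all genes. In mESC, H19 was higher by 1.96, and of 9 tested pluripotency markers Klf4 (0.52) and Zfp42 (0.44) were higher and Tdgf1 (-0.95) was lower, against 22% of all genes.

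Markers of cell state moved beside the fall of IGF2BP2 as well. In control MOLM13 cells MEIS1 was lower on the log2 scale with SGC0946 (-2.37) and with VTP50469 (-4.57), 4 of 6 tested stem and progenitor markers were lower with each drug, and 4 of 6 granulocyte markers were higher (MPO 2.20 and 2.29), against 13% and 16.5% of all genes. In control MV4;11 cells MEIS1 was lower with VTP50469 (-4.19), where 21% of all genes were called. In the MV4;11 clone in DMSO, 5 of 6 markers of the list that holds SOX4 (3.12) were higher than in control, against 16.2% of all genes. Their part in the IGF2BP2 results was not tested. In MOLM13, the genes most like IGF2BP2 over 9 group means, of 7741 genes of at least 10 CPM, were NDUFAB1, GNPNAT1 (r = 0.982 for both) and KCNN2 (r = 0.981), a description without a test.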

How the data were processed

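RNA-seq libraries of 3′ transcript ends were prepared from leukaemia lines, erythroid lines and mouse embryonic stem cells treated with SGC0946, VTP50469 or DMSO. After trimming with bbmap, the reads were aligned to hg38 or mm10 and counted per gene by STAR, and the authors deposited raw read counts per gene without normalization. Summary lines of the MOLM13 knockout and MV4;11 tables have the names that another counter uses. The gene annotation and strand setting are not given in the sources used here, so that a gene and its antisense partner cannot be told apart. Lines that name no gene (36.3% to 48.6% of counts in the MOLM13 knockout table and 21.4% to 29.0% in the MV4;11 table) were left out of library sizes. Of 180 libraries in the labels 159 could be matched to a column and were used, and 72 per-sample columns were not used. Columns of the murine washout table headed DMSO with a time were among these. The DMSO columns used there have no time in their names, and the labels give 48 h.

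CPM were computed over gene counts times the TMM factor. Each table was fitted as a whole, with 1 coefficient per group, by edgeR 4.0.16 (quasi-likelihood test, R 4.3.3) after a filter of at least 2 CPM in at least 2 libraries, with Benjamini-Hochberg adjustment over all genes tested and a threshold of 0.05. Interactions were contrasts of the same fit. Standard errors were derived from the F statistic. Fits were tested on simulated counts. Counting intervals (95%) for ratios of summed counts cover counting error only. Seed matches were searched as CTACCTC on the sense strand of 1 transcript per gene. The alternatives were RLE scaling, library size alone, no filter, the groups compared alone, DESeq2 1.42.0, an adjusted p under 0.1 with an absolute log2 fold change over 0.5, the replicate number as a block, each library left out in turn, and libraries under 1000000 reads left out.

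Replicate numbers were checked by the correlation of deviations from group means. Every pair passed 0.1 in the murine knockout experiment (0.114 to 0.513), the MOLM13 washout series (0.168 to 0.816) and the HuDEP-2 differentiation series (0.169 to 0.435), and within the PCGF1 KO of the murine washout series (0.112 to 0.190), so that the numbers were taken to pair the libraries there. The 5 members and the gene lists were chosen with earlier results of these data known. By a fixed rule, the text names from each list at most the 3 called genes of largest absolute log2 fold change with a mean of at least 10 CPM.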

Additional observations from a re-analysis of the deposited data

Results flagged for a closer look

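In mESC the SGC0946 library of replicate 4 stood apart from the other 3 of its group for Igf2bp1 (179.8 CPM, from 8 reads, against 218 CPM for the nearest) and for Igf2bp2 (134.9 CPM, from 6 reads, against 23.2 CPM for the nearest). That library holds 34303 counts, and chance sets a library apart in about 1 in 20 groups, with 28 groups of 4 searched. The response of Igf2bp3 to 48 h of VTP50469 and 72 h of washout differed between PCGF1 KO and control murine cells by 0.71 on the log2 scale, tested as an interaction. The response of IGF2BP2 to VTP50469 in MV4;11 differed between the PCGF1 KO clone and the control by 1.23, tested likewise.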

How the results depend on the processing

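Of 2908 values under the alternatives run, 119 had another sign than the reported value, and 0 of these were called in either fit. Of 106 tests, 101 kept their side of the threshold with DESeq2, 105 with RLE scaling, 102 each with library size alone, without the filter and with only the groups compared, and 98 with an adjusted p under 0.1 and a log2 limit of 0.5. The number of calls in the MOLM13 washout series went from 1 to 2 with only the groups compared, and in mESC from 3 to 1 with DESeq2, and the cause was not tested. With 1 library left out at a time, calls ranged from 0 to 0 in the murine knockout experiment, 5 to 7 in the murine washout series, 5 to 7 in MOLM13, 6 to 7 in MV4;11 and 6 to 8 in the HuDEP-2 differentiation series. The ranges were 1 to 1 in K562 and likewise in the MOLM13 washout series, 2 to 4 in mESC, and 2 to 3 in HuDEP-2. Without the shallow library, mESC gave 4 calls.

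With the replicate number as a block, calls were 1 in the murine knockout experiment (0 without), 7 in the murine washout series, 7 in MOLM13, 2 in the MOLM13 washout series (1 without), 7 in MV4;11, 1 in K562, 2 in HuDEP-2, 3 in mESC and 10 in the HuDEP-2 differentiation series. Where the numbers paired the libraries, the calls that the block added stand beside the results, and it removed none. Elsewhere the block added the PCGF1 interaction of IGF2BP2 with SGC0946 in MOLM13 (adjusted p = 0.0337), and correlations of the pairs ran from -0.139 to 0.153. Depth limits IGF2BP3, LIN28B and HMGA2 in the lines where they had few reads.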
